A study of Mus musculus with 80 samples.

Results

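The genes described here are 9 genes of fetal liver and of bile duct, read in the livers of adult female mice given a perfluorinated compound. The question asked of them is whether a liver in which genes of cell division rise also regains genes of its fetal or ductal relatives. They were chosen by gene symbol, as Afp, H19, Gpc3, Cd24a, Spp1, Sox9, Krt19, Krt7 and Epcam. All 9 have a row among the 22103 rows of the deposited table. The mice were Balb-C females of 10 to 12 weeks given PFESA-BP2 (Nafion byproduct 2, a perfluoroalkyl ether sulfonic acid) by gavage once a day for 7 days. Controls received 0 mg/kg-day, and the other 4 groups 0.03 or 0.3 mg/kg-day at the low end and 3.0 or 6.0 mg/kg-day at the high end. Each group held 4 individual mice. Control titles name DMSO and the design text names deionized water, so the vehicle is unsettled, and the substrain is not given. All groups were dosed by gavage and no group was left undosed.

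Alpha-fetoprotein (Afp), the imprinted long noncoding RNA H19 and the heparan sulfate proteoglycan glypican-3 (Gpc3) are made at high levels by the hepatoblasts of fetal liver. They are silenced around birth and can return in regenerating liver and in liver cancer. Keratin 19 (Krt19), keratin 7 (Krt7), the adhesion molecule Epcam and the transcription factor Sox9 mark the epithelium of bile ducts, and hepatocytes can gain some of them during injury. Osteopontin (Spp1) and the surface glycoprotein Cd24a are made by duct and progenitor cells, and also by blood-derived cells: Spp1 by activated macrophages, Cd24a by immature lymphocytes, granulocytes and red cell precursors.

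Each mouse gave 1 library, and totals ranged from 13086779 to 21467012 counts. Levels are in CPM, that is counts scaled to a common library total. The words rose and fell are used only where the adjusted p of edgeR's quasi-likelihood test, adjusted over all 15197 genes tested, was under 0.05. Within the groups, 5 libraries (3, 11, 15, 19 and 23, 1 in each group) stood apart from the others on the first component of within-group variation, which held 42.7% of that variation. Each of them has the third library number of its group. The labels give no batch for them. Of the 24 proliferation genes listed, 23 rose at the highest dose (median log2 change 3.43) and 18 rose at 3.0 mg/kg-day (median 2.45). At 0.03 and 0.3 mg/kg-day 0 of them rose (median 0.0031 and 0.29). Mki67, the proliferation antigen, had 19.5, 47.6, 25.1 and 23.7 CPM at 6.0 mg/kg-day, against 2.62, 2.47, 2.53 and 2.17 CPM in controls. As for the liver label, albumin (Alb) was at 61697 CPM or more in every library of the 6.0 and control groups.

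With all libraries in and no term for those that stood apart, 0 of the 9 genes passed against controls at any dose. Up to 4 passed at 6.0 mg/kg-day under other settings. H19 was left out by the filter on low counts, so 8 were tested. Of these, 0 of 8 passed at 0.03 mg/kg-day, where 0% of all genes tested passed. At that dose 0 of the 8 had an unadjusted p under 0.05 by edgeR, against 565 of all genes tested. DESeq2 passed 0 of the 8 as well. At 0.3 mg/kg-day 0 of 8 passed, where 0.29% of all genes did, and at 3.0 mg/kg-day 0 of 8 passed, where 4.61% did. At those doses 1 (Spp1) and 0 of the 8 had an unadjusted p under 0.05, against 1301 and 2180 of all genes tested. DESeq2 and limma-voom passed 0 of the 8 at both. At 6.0 mg/kg-day 0 of 8 passed while 22.4% of all genes tested passed. An unadjusted p under 0.05 was found for 5248 of the 15197 genes tested and for 4 of the 8 (Gpc3, Cd24a, Krt19 and Krt7). Those 4 had log2 changes between 1.04 and 1.27, with adjusted p from 0.0529 for Krt7 to 0.0899 for Gpc3. DESeq2 passed 2 of the 8 at this dose (Cd24a and Krt19), where 3796 of all genes passed, and limma-voom 0. With a term for the 5 libraries that stood apart edgeR passed 3 (Cd24a, Krt19 and Krt7), where 5639 of all genes passed. It passed the same 3 with those libraries left out, where 5228 of all genes passed. Without library 23 alone it passed 4, Gpc3 being the other, where 4653 of all genes passed. Without library 2 it passed 2 (Krt19 and Krt7), where 3066 of all genes passed. Without library 21 or 24 it passed 1 (Cd24a), and without library 22, described below, 0. Over all genes 2862, 3096 and 2346 passed without library 21, 24 and 22. A p that misses the threshold does not show that levels were alike, and the intervals below give the sizes these 4 mice per group allow. The 4 dose comparisons share the same 4 control mice.

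**Figure D1:**
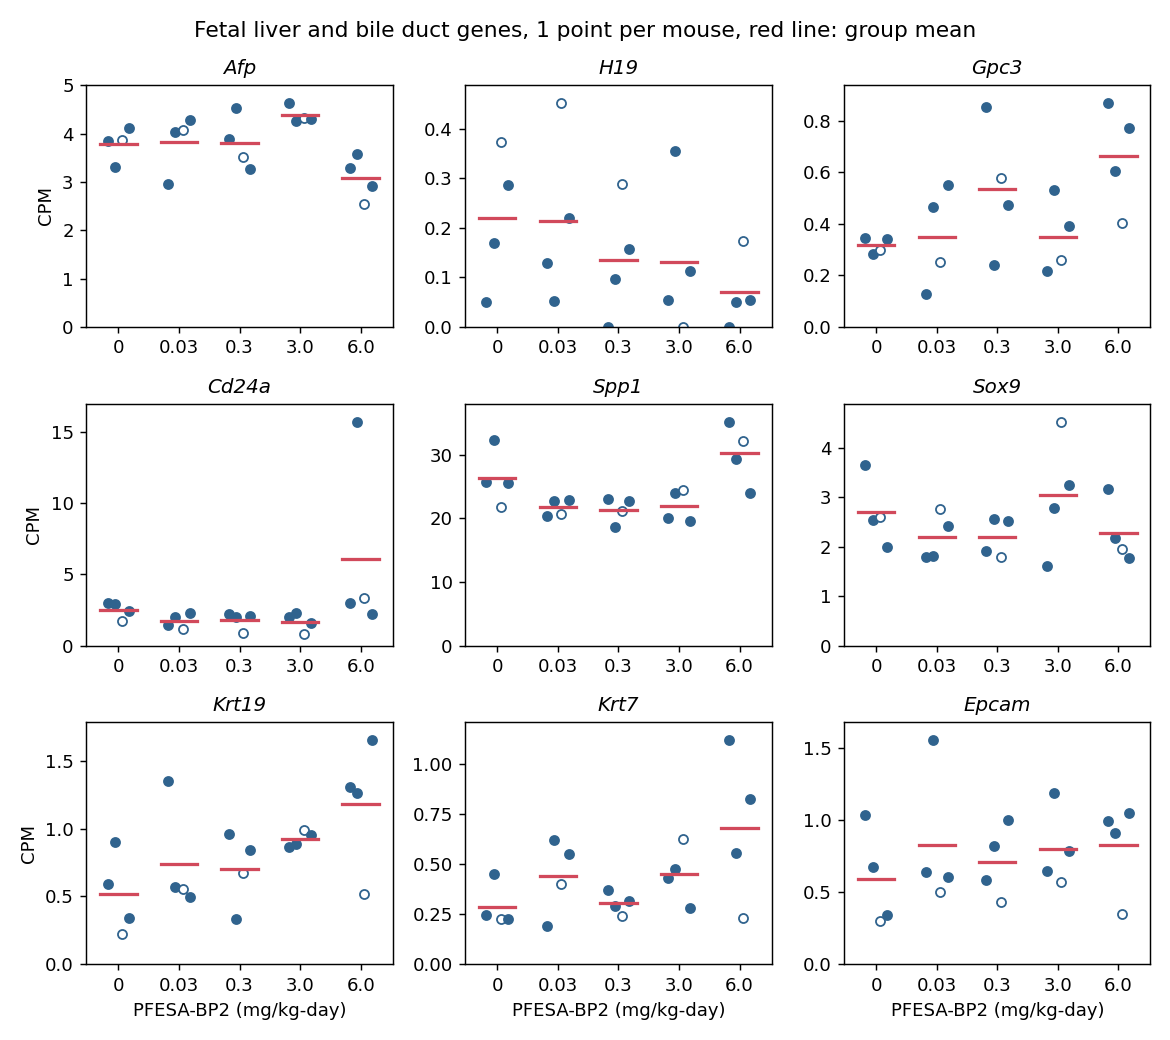
CPM of each of the 9 genes (y axis) in each mouse by dose of PFESA-BP2 in mg/kg-day (x axis), with the group mean as a red line and the 5 libraries that stood apart as open circles. Krt19 has its highest mean at 6.0 mg/kg-day, 1.18 CPM, and the Cd24a mean at that dose is drawn up by 1 mouse at 15.7 CPM.

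Of the 9 genes, Spp1 was among the higher rows of the table by level, Afp and Cd24a stood near its middle, and the other 6 lay below it. Per kilobase of exon, the scale on which genes can be compared, Spp1 led with a mean of 16.0 ± 2.65 CPM per kilobase in controls (SD, n = 4). Alb, the main product of adult hepatocytes, stood at 54081 CPM per kilobase in controls. Afp followed Spp1 at 1.12 ± 0.10, Cd24a at 0.974 ± 0.225 and Sox9 at 0.652 ± 0.167 CPM per kilobase in controls (SD, n = 4 each). Next came Krt19 at 0.277, Epcam at 0.268, Gpc3 at 0.118, H19 at 0.0890 and Krt7 at 0.0407 CPM per kilobase in controls. The control ranges of Spp1 and Afp did not overlap, nor did those of Epcam and Gpc3. Cd24a lay above Sox9, and Sox9 above Krt19, within each of the 4 control mice, though their ranges overlapped. For Afp and Cd24a, Krt19 and Epcam, Gpc3 and H19, and H19 and Krt7 the order differed between control mice. Over all 20 libraries the level of Spp1 was higher than that of 88.9% of the 20992 rows with a known length, that of Afp higher than 51.3%, and that of Krt7 higher than 16.3%. Keratins 8 and 18 (Krt8 and Krt18), the pair that hepatocytes themselves use, stood at 61.3 and 170 CPM per kilobase at 6.0 mg/kg-day, against 30.8 and 99.6 in controls. Reads of keratin genes can be shared among this family of similar sequences, and the authors' counting is not stated, so low counts of Krt7 and Krt19 carry that doubt.

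**Figure D2:**
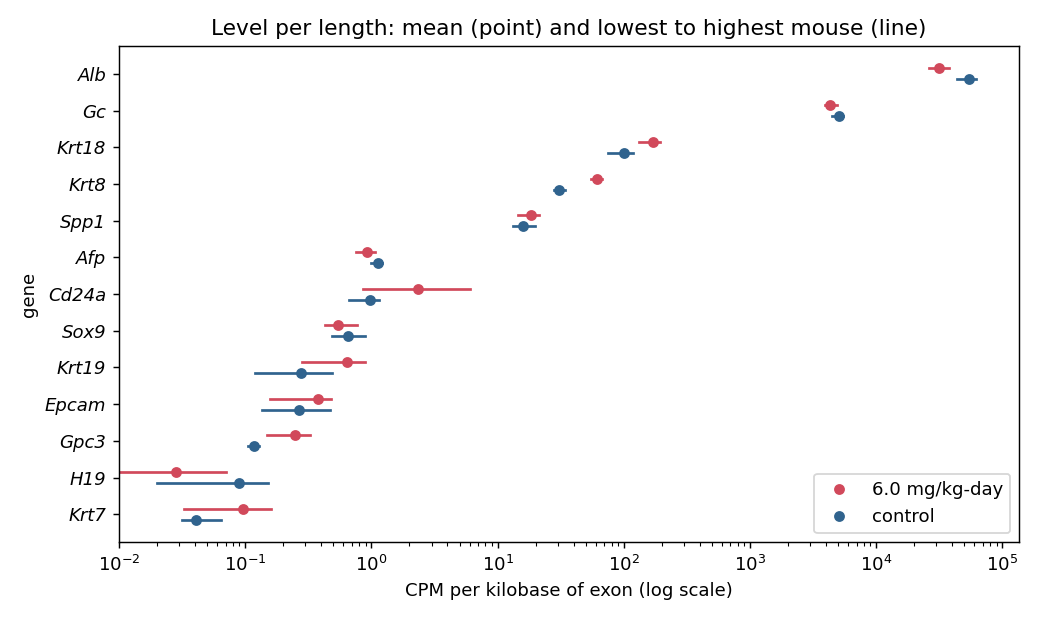
Level per kilobase of exon (x axis, log scale) of the 9 genes and of Alb, Gc, Krt8 and Krt18, with points for group means and lines from the lowest to the highest mouse. The 6.0 mg/kg-day group is drawn above the control group for each gene, and the line of H19 at 6.0 mg/kg-day runs to the left edge since its lowest mouse is at 0. The duct keratins Krt19 and Krt7 lie far below Krt8 and Krt18 in both groups.

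Afp encodes the fetal counterpart of albumin and lies next to Alb in a gene family on chromosome 5 (GRCm38 chr5:90490737-90508907, plus strand, protein-coding). No rise of Afp passed the test at any dose. It had 3.29, 3.58, 2.53 and 2.92 CPM at 6.0 mg/kg-day, against 3.85, 3.32, 3.88 and 4.11 CPM in controls. At the doses between, it had 2.95, 4.03, 4.07 and 4.29 CPM at 0.03 mg/kg-day, 3.89, 4.52, 3.51 and 3.26 at 0.3, and 4.64, 4.27, 4.32 and 4.31 at 3.0. Of the 4 mice at 6.0 mg/kg-day, 3 lay below every control, and library 22 lay inside the control range. The change at 6.0 mg/kg-day was -0.30 on the log2 scale (95% interval -0.62 to 0.030, adjusted p = 0.188), an interval that leaves out any rise above 0.030. At 3.0 mg/kg-day every mouse lay above every control, with a log2 change of 0.21 (-0.11 to 0.53, adjusted p = 0.626), and Afp was the 1 member of the 8 whose groups did not overlap there, as for 10.5% of all genes tested. Between the top doses, all 4 mice at 6.0 lay below all 4 at 3.0 mg/kg-day, with a log2 change of -0.51 (-0.83 to -0.18, adjusted p = 0.0991). Of all genes tested 6.46% had groups that did not overlap in that comparison, and 2.09% passed it. With a term for the 5 libraries that stood apart, Afp passed it (-0.51, adjusted p = 0.0411). The gene Gm43449 overlaps Afp on the other strand, and whether counting used strand is not stated.

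Genes around Afp changed unevenly, some by more than it did and some by less. Of 19 genes of the Afp family and of its known regulators, 7 fell at 6.0 mg/kg-day and 1 rose, where 22.4% of all genes passed. The median log2 change of the 19 was -0.32, against -0.018 over all genes tested. Without library 22 the falls numbered 3 (Alb, Afm and Foxa3), without library 21 they numbered 4, and in a fit of the 2 groups only, 2. Alb fell by 0.78 on the log2 scale (adjusted p = 0.00387), to 88901, 80653, 63942 and 61697 CPM at 6.0 mg/kg-day, against 138237, 121458, 145316 and 101617 CPM in controls. Afm (afamin), another member of the family, fell by 0.45 (adjusted p = 0.00721). The hepatocyte factors Foxa3, Hnf4a and Cebpa fell by 1.44, 0.58 and 0.67. Lpl, lipoprotein lipase, rose by 0.61 (adjusted p = 0.00365). Zhx2 and Zbtb20 encode the repressors that silence Afp after birth in mice, and Zhx2 also acts on H19, Gpc3 and Lpl. Zhx2 had 4.23, 4.54, 8.41 and 8.26 CPM at 6.0 mg/kg-day, against 8.34, 8.49, 6.86 and 7.94 CPM in controls, a log2 change of -0.32 (-0.72 to 0.091, adjusted p = 0.267). It was low in libraries 21 and 22, while libraries 23 and 24 lay inside the control range. The change of Zbtb20 was -0.005 (-0.55 to 0.54, adjusted p = 0.991).

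Promoter sequence from RefSeq (GRCm38.p6) was matched for 5 of the 9 genes, namely Afp, Gpc3, Spp1, Krt7 and Epcam. The 250 bases before the RefSeq start are shown for Afp and for its neighbour Alb, since Alb fell at 6.0 mg/kg-day while Afp did not pass the test. The window of Krt7 is shown as that of a duct gene. Capitals mark matches on either strand to the TATA box (searched as TATAAA), the CCAAT box (searched by those letters) or the GC box (searched as GGGCGG). The windows are chr5:90490464-90490713 (Afp, plus strand), chr5:90460620-90460869 (Alb, plus strand) and chr15:101412153-101412402 (Krt7, plus strand).
Afp: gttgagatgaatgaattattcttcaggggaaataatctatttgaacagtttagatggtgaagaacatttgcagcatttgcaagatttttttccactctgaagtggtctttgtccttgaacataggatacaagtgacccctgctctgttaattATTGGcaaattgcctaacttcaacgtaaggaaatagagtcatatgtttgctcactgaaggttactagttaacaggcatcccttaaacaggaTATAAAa
Alb: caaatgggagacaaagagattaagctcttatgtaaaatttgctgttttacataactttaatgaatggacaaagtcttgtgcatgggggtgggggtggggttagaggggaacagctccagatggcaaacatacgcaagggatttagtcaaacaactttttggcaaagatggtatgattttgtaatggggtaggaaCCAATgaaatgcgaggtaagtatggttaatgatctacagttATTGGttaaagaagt
Krt7: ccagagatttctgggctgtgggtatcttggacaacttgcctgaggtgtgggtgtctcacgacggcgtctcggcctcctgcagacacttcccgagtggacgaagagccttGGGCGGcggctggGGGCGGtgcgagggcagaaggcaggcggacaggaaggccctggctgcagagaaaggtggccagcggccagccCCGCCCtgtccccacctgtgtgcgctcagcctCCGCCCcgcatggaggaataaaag
The Afp window holds 1 TATA box and 1 CCAAT box, with their first bases at -7 and -98 from the RefSeq start. The Alb window holds 2 CCAAT boxes, at -56 and -15, and neither of the other motifs. The GENCODE starts of Afp and Alb, 90490737 and 90460897, lie beyond the ends of their windows. The bases between were not searched, so the Alb window does not show that Alb lacks a TATA box. The Krt7 window holds 4 GC boxes and neither of the others, and it lies inside the GENCODE span of Krt7 (chr15:101411043-101430313). Of 32536 such windows, 12.3% hold the TATA box, 33.8% the CCAAT box and 33% the GC box. No 2 of the matches shown overlap, and a match describes letters only.

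H19 (GRCm38 chr7:142575529-142578143, minus strand, a long intergenic noncoding RNA that hosts Mir675) was at the limit of detection. It had 0, 1, 3 and 1 counts at 6.0 mg/kg-day, against 1, 3, 5 and 5 counts in controls. Over each group of 4 mice the counts summed to 14 in controls, 16 at 0.03, 11 at 0.3, 9 at 3.0 and 5 at 6.0 mg/kg-day. No mouse of any dose held more than 9. A count of 3 in 1 library stands for 0.144 to 0.224 CPM, so most of these levels are not told from 0. Without the filter on low counts its log2 change at 6.0 mg/kg-day was -1.49 (-3.51 to 0.52, adjusted p = 0.351 by edgeR). Igf2, the fetal growth factor gene that shares its imprinting control with H19, was equally sparse, with 1 to 5 counts per library, and was not tested either.

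Gpc3, which binds Wnt and Hedgehog ligands and IGF2 at the cell surface (GRCm38 chrX:52272426-52613950, minus strand, protein-coding), was the 1 tested gene of the 8 whose mice at 6.0 mg/kg-day lay entirely outside the controls. Gpc3 had 0.870, 0.605, 0.403 and 0.771 CPM at 6.0 mg/kg-day, against 0.346, 0.281, 0.298 and 0.343 CPM in controls. It had 0.128, 0.465, 0.251 and 0.550 CPM at 0.03 mg/kg-day, 0.852, 0.241, 0.578 and 0.474 at 0.3, and 0.216, 0.533, 0.260 and 0.392 at 3.0. The controls were tight and the other groups wide, so the highest mouse at 0.3 mg/kg-day came close to the highest at 6.0. Groups at 6.0 mg/kg-day and control did not overlap for 18.5% of all genes tested. The log2 change was 1.04 ± 0.43 (SE; 95% interval 0.14 to 1.93, adjusted p = 0.0899), a fitted fold of 2.05. Leaving out library 23, the lowest of the 6.0 mg/kg-day group, gave 1.21 with an adjusted p of 0.0461. These values rest on few counts, and Gpc3 overlaps other annotated genes on both strands, among them Gm14582.

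**Figure D3:**
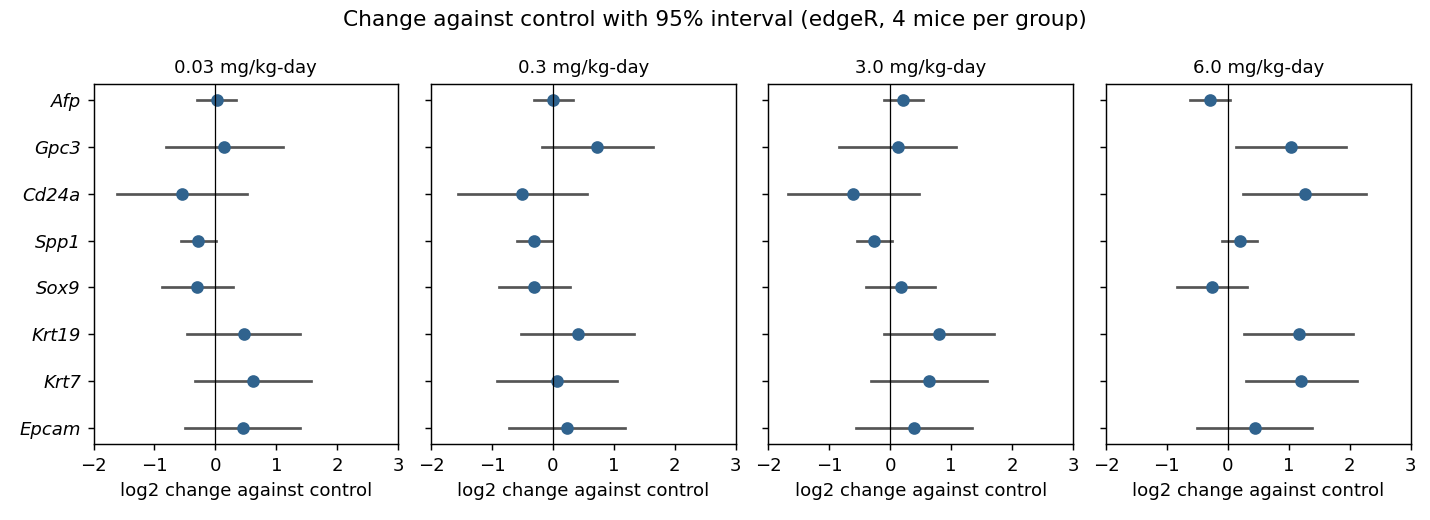
Log2 change of the 8 tested genes against controls (x axis), 1 panel per dose, with 95% intervals from edgeR, 4 mice per group. At 6.0 mg/kg-day the intervals of Gpc3, Cd24a, Krt19 and Krt7 lie above 0 before adjustment, and those of Afp, Spp1, Sox9 and Epcam include 0.

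The duct keratins were the nearest to a rise. Krt19 (GRCm38 chr11:100140810-100148665, minus strand, protein-coding), an intermediate filament of duct cells, had 1.31, 1.26, 0.518 and 1.65 CPM at 6.0 mg/kg-day, against 0.592, 0.900, 0.224 and 0.343 CPM in controls. It had 1.35, 0.569, 0.552 and 0.495 CPM at 0.03 mg/kg-day, 0.959, 0.337, 0.674 and 0.842 at 0.3, and 0.863, 0.889, 0.989 and 0.952 at 3.0. In all, 3 mice at 6.0 mg/kg-day lay above every control, and library 23 lay among the controls. The log2 change at 6.0 mg/kg-day was 1.16 ± 0.43 (SE; 0.27 to 2.05, adjusted p = 0.0563). Along the dose ranks Krt19 rose, by 0.27 log2 per dose step (0.082 to 0.45, adjusted p = 0.0301), the 1 of the 8 that passed this test. Of all genes tested 26.4% passed the trend and 13.7% passed it upward. In bulk liver, more duct cells and more keratin RNA per cell cannot be told apart. The trend no longer passed without library 3, 4, 21, 22 or 24, taken singly, with adjusted p from 0.0627 to 0.0965. With a term for the 5 libraries that stood apart Krt19 also passed at 6.0 mg/kg-day (1.16, adjusted p = 0.0261).

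Krt7, the other duct keratin (GRCm38 chr15:101411043-101430313, plus strand, protein-coding), had 1.12, 0.554, 0.230 and 0.826 CPM at 6.0 mg/kg-day, against 0.247, 0.450, 0.224 and 0.228 CPM in controls. At the doses between, Krt7 ranged from 0.193 to 0.621 CPM at 0.03 mg/kg-day, 0.241 to 0.373 at 0.3 and 0.280 to 0.625 at 3.0. Libraries 21, 22 and 24 lay above every control, and library 23 lay inside the control range. The log2 change was 1.21 ± 0.44 (SE; 0.29 to 2.13, adjusted p = 0.0529), and the trend was 0.25 per step (0.046 to 0.45, adjusted p = 0.0635). Without library 23 the change was 1.49 (adjusted p = 0.00859), and without library 2, the highest control, it was 1.51 (adjusted p = 0.0374). With a term for the libraries that stood apart it was 1.20 (adjusted p = 0.0355). Gm671 overlaps Krt7 on the other strand.

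Mesothelial cells, which cover the liver's surface, also make these keratins, and their markers moved with them. All 6 listed mesothelial markers have a row and 3 of them were tested, and Msln (mesothelin) and Upk3b (uroplakin 3B) rose at 6.0 mg/kg-day, by 2.43 and 1.85 on the log2 scale (adjusted p = 0.0013 and 0.0019). The third, Gpm6a, changed by 0.45 without passing, and 22.4% of all genes tested passed at this dose. Msln had 2.30, 1.01, 0.403 and 1.71 CPM at 6.0 mg/kg-day, against 0.197, 0.450, 0.149 and 0.171 CPM in controls. Upk3b had 4.29, 1.81, 0.922 and 4.02 CPM at 6.0 mg/kg-day, against 1.09, 0.900, 0.671 and 0.343 CPM in controls. Libraries 21 and 24 were highest and library 23 lowest for both markers, as for Krt7, Krt19, Gpc3 and Epcam. Of the 3 untested ones, Upk1b had 0.346 to 0.995 CPM at 6.0 mg/kg-day, against 0 to 0.197 CPM in controls, and Wt1 and Lrrn4 overlapped between the groups. The 6 markers summed to 3.92 to 13.3 CPM at 6.0 mg/kg-day, against 1.83 to 5.37 CPM in controls. Over the 20 libraries the log2 CPM of Krt7 and Upk3b had a Pearson r of 0.80, and that of Krt19 and Msln 0.79, as a description of libraries that share dose groups. Of deviations from the group means the r was 0.69 and 0.74. Gpc3 had an r of 0.63 with Msln and 0.44 with Upk3b over the 20 libraries, and 0.44 and 0.34 of deviations. For Epcam these were 0.50 and 0.48, and 0.60 and 0.46 of deviations. Deviations from the group means still carry the split of the libraries that stood apart, each of which had the lowest Epcam of its group. The part of mesothelial RNA in the keratin, Gpc3 and Epcam values was not tested.

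**Figure D4:**
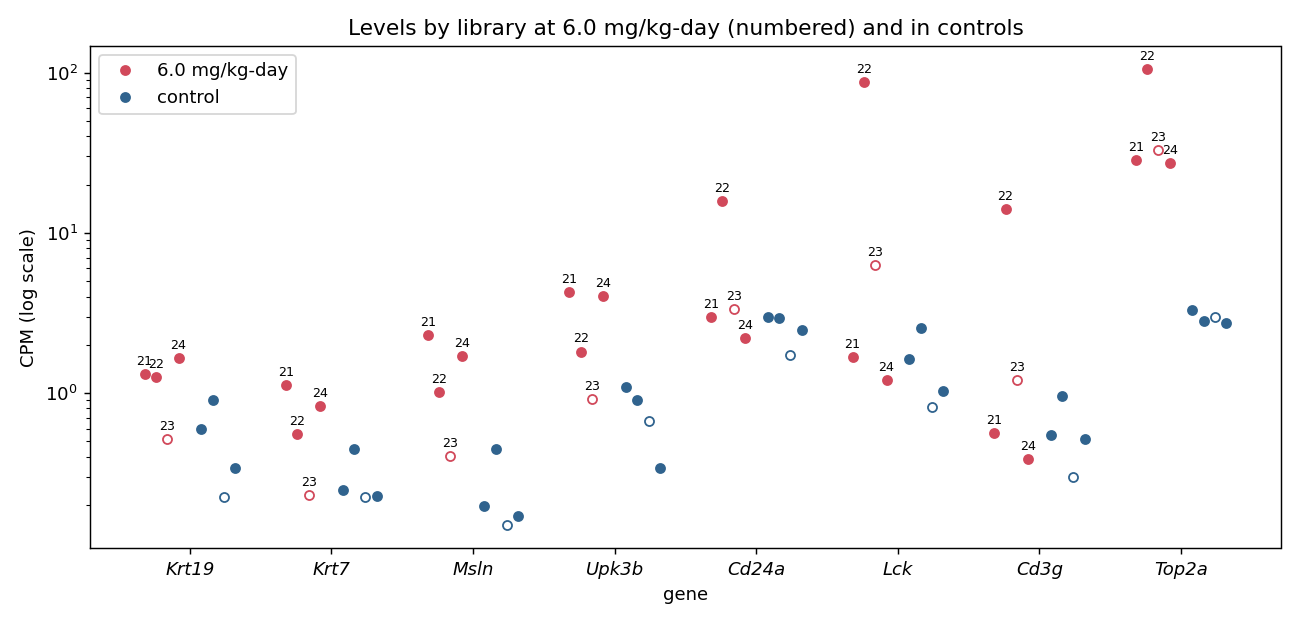
CPM (y axis, log scale) of Krt19, Krt7, Cd24a and of marker genes of mesothelium (Msln, Upk3b), T cells (Lck, Cd3g) and division (Top2a) in each mouse at 6.0 mg/kg-day (red, library number above) and in controls (blue), with open circles for libraries 23 and 3, which stood apart. Library 22 is highest for Cd24a, Lck, Cd3g and Top2a, and library 23 is the lowest of the 4 for Krt19, Krt7, Msln and Upk3b.

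Sox9, the transcription factor of duct and progenitor cells (GRCm38 chr11:112782224-112787760, plus strand, protein-coding), did not follow the keratins. Sox9 had 3.17, 2.17, 1.96 and 1.76 CPM at 6.0 mg/kg-day, against 3.65, 2.53, 2.61 and 2.00 CPM in controls. Its log2 change was -0.26 (-0.84 to 0.32, adjusted p = 0.543), so a rise above 0.32 lay outside the interval. The mice of both groups overlapped, and the widest group was 3.0 mg/kg-day, at 1.62 to 4.53 CPM.

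Epcam, the duct adhesion molecule (GRCm38 chr17:87635979-87651129, plus strand, protein-coding), had 0.995, 0.907, 0.346 and 1.05 CPM at 6.0 mg/kg-day, against 1.04, 0.675, 0.298 and 0.343 CPM in controls. The groups overlapped over most of their range. Its log2 change was 0.44 (-0.50 to 1.39, adjusted p = 0.525), an interval that reaches the changes of Krt19 and Krt7. In each of the 5 groups the lowest Epcam value was that of the library that stood apart.

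Spp1, a secreted phosphoprotein that binds integrins and CD44 (GRCm38 chr5:104435118-104441050, plus strand, protein-coding), had 35.2, 29.3, 32.2 and 24.0 CPM at 6.0 mg/kg-day, against 25.7, 32.3, 21.8 and 25.5 CPM in controls. It had 20.4, 22.8, 20.7 and 22.9 CPM at 0.03 mg/kg-day, 23.0, 18.6, 21.2 and 22.6 at 0.3, and 20.1, 24.0, 24.4 and 19.5 at 3.0. Of the 12 mice at the 3 lower doses, 6 lay below every control and 6 inside the control range. At 6.0 mg/kg-day library 21 lay above the highest control and library 23 level with it. The log2 change at 6.0 mg/kg-day was 0.19 (-0.087 to 0.48, adjusted p = 0.329). Against 3.0 mg/kg-day it was 0.46 (0.17 to 0.74, adjusted p = 0.0879), and DESeq2 passed this difference (0.47, adjusted p = 0.0251). Gm42793 overlaps Spp1 on the same strand. Of 11 Kupffer cell and macrophage markers, which are a second source of Spp1, 9 were tested at 6.0 mg/kg-day against controls and 0 rose, while Csf1r fell by 0.56 (adjusted p = 0.000366). Their summed level was 226 to 517 CPM at 6.0 mg/kg-day, highest in library 22, against 299 to 366 CPM in controls.

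Cd24a, a glycoprotein of progenitor and immature blood cells (GRCm38 chr10:43578284-43584265, plus strand, protein-coding), rested on 1 mouse. Cd24a had 2.98, 15.7, 3.34 and 2.20 CPM at 6.0 mg/kg-day, against 2.96, 2.92, 1.71 and 2.45 CPM in controls. It ranged from 1.15 to 2.26 CPM at 0.03 mg/kg-day, 0.866 to 2.18 at 0.3 and 0.833 to 2.25 at 3.0. Library 22 stood far above the 19 others. Libraries 21 and 23 lay just above the highest control, and library 24 lay inside the control range. The log2 change at 6.0 mg/kg-day was 1.27 ± 0.48 (SE; 0.26 to 2.28, adjusted p = 0.0657) and against 3.0 mg/kg-day 1.88 (0.83 to 2.92, adjusted p = 0.0558). With a term for the libraries that stood apart the change against controls passed (1.26, adjusted p = 0.0163). Without library 22 the changes were 0.17 (adjusted p = 0.805) and 0.78 (adjusted p = 0.451). Sequences that resemble Cd24a occur elsewhere in the mouse genome, so its counts may be shared.

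The same library 22 held markers of T cells and neutrophils, and had the highest macrophage and B cell sums of its group. Lck, a T cell kinase, had 1.68, 87.7, 6.28 and 1.21 CPM at 6.0 mg/kg-day, against 1.63, 2.53, 0.820 and 1.03 CPM in controls. All 9 T and NK cell markers summed to 129 CPM in library 22, to 4.24 to 10.5 CPM in the other 3 mice at 6.0 mg/kg-day, and to 5.96 to 8.66 CPM in controls. The 8 neutrophil markers summed to 36.8 CPM in library 22, to 5.22 to 5.53 CPM in the other 3, and to 0.820 to 1.88 CPM in controls. In libraries 21, 23 and 24 most of that sum was S100a8, at 4.35, 3.97 and 4.74 CPM. S100a9 was at 0.373, 0.806 and 0.165 CPM in them, against 0.298 to 0.889 CPM in controls. Kupffer cell and macrophage markers summed to 517 CPM in library 22, to 226 to 377 CPM in the other 3, and to 299 to 366 CPM in controls. B cell markers summed to 40.7 CPM in library 22, to 16.1 to 34.4 CPM in the other 3, and to 16.2 to 33.9 CPM in controls. Top2a, the DNA topoisomerase of dividing cells, was also highest in library 22, at 106 CPM. It was at 27.4 to 32.8 CPM in the other 3 and at 2.74 to 3.31 CPM in controls. Among other markers, Cd3e of T cells was at up to 10.3 CPM at 6.0 mg/kg-day against up to 1.35 CPM in controls, while Nkg7 of NK cells reached 0.275 CPM at 6.0 mg/kg-day against 0.592 CPM in controls. The part of blood cell RNA in the Cd24a value was not tested.

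Further genes of fetal liver and tumours moved in both directions at 6.0 mg/kg-day. Of 24 listed, 20 have a row and 13 were tested, of which 4 rose and 2 fell, where 22.4% of all genes tested passed. The median log2 change of the 13 was -0.20, against -0.018 over all genes tested. Aldoa and Pkm, the glycolytic isoforms that fetal liver uses, rose by 0.75 and 1.20 (adjusted p = 0.00813 and 0.00845), and Peg3, an imprinted zinc finger gene, and Scd2, a fatty acid desaturase, by 1.09 and 0.73 (adjusted p = 0.0308 and 0.0427). Meg3, an imprinted noncoding RNA, fell by 2.55 (adjusted p = 9.4e-05), to 0.684, 0.403, 0.576 and 0.386 CPM at 6.0 mg/kg-day, against 1.68, 2.14, 2.98 and 5.25 CPM in controls. Cdkn1c, an imprinted inhibitor of the cell cycle, fell by 1.10 (adjusted p = 0.00138). Without library 22 the count of risen genes was 1, Aldoa (0.71, adjusted p = 0.0269), with Pkm at 0.57 (adjusted p = 0.0577), while Meg3 and Cdkn1c still fell. Without library 1, 2, 4 or 23, taken singly, 2 genes rose.

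Other duct genes also split. Of 28 listed, 26 have a row and 20 were tested, of which 3 rose and 5 fell at the highest dose (median log2 change -0.12). Of all genes tested 22.4% passed at this dose. Krt8 and Krt18, keratins of hepatocytes and ducts alike, rose by 0.99 and 0.77 (adjusted p = 2.71e-06 and 0.00286), and Tspan8, a tetraspanin of epithelia, by 1.11 (adjusted p = 0.0116). Krt8 had 108, 115, 132 and 125 CPM at 6.0 mg/kg-day, against 66.6, 63.4, 55.2 and 56.4 CPM in controls. Among those that fell, Cdh1 (E-cadherin), Onecut2 and Onecut1 (factors of duct formation) and Pkd2 (polycystin 2 of primary cilia) fell by 1.02, 1.13, 0.97 and 0.55. Without library 22 there were 2 rises (Krt8 and Krt18) and 3 falls (Cdh1, Onecut2 and Pkd2). Of 18 tested genes of the Notch and YAP pathways, which drive duct fate, 6 fell and 1 rose, where 22.4% of all genes passed. Hes1, a Notch target, and Cyr61, a YAP target, fell by 0.76 and 0.93 (adjusted p = 0.0179 and 0.00314), as did Lats2 by 0.75 and Axl by 0.40, while Ctgf, another YAP target, rose by 0.81. Without library 22, 4 of these fell and 0 rose, and without library 23, 10 fell and 2 rose.

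**Figure D5:**
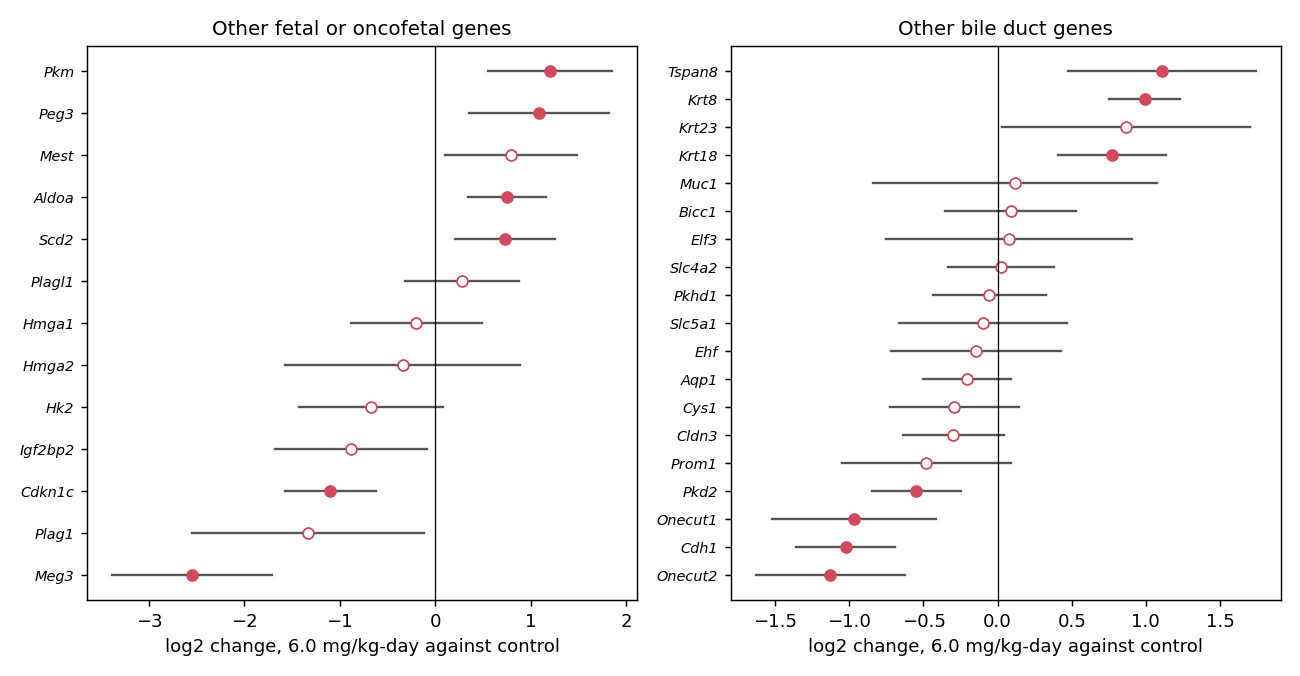
Log2 change at 6.0 mg/kg-day against controls (x axis) with 95% intervals for 13 other fetal or oncofetal genes (left) and 19 of the 20 other duct genes tested (right), filled where the adjusted p was under 0.05. Both panels hold filled points on either side of 0, from Meg3 at -2.55 to Pkm at 1.20 on the left and from Onecut2 at -1.13 to Tspan8 at 1.11 on the right.

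The genes whose log2 CPM followed each of the 8 most closely over the 20 libraries are given as a description, with Pearson r and no test, since the libraries share dose groups and depth. These genes were picked for the highest r among all genes tested, and that choice by itself raises r. Cd24a was most like Tnfaip8 (0.89), Gm14681 (0.88) and Npm1 (0.87). Krt19 was most like D630039A03Rik (0.83), Cenpx and Pycrl (0.80 each), and Krt7 like Cav1 (0.81), Upk3b (0.80) and Mup-ps15 (0.75). Epcam was most like Ndufab1-ps (0.81), Uck1 (0.79) and Exosc4 (0.78), and Spp1 like Atp6v1h (0.79), Vdac3-ps1 (0.77) and Acta2 (0.75). For Sox9 the first were Skil (0.76) and Arntl (0.72), for Gpc3 Gm28071 (0.73), Palmd (0.72) and Galnt18 (0.69), and for Afp Gm37296 (0.70), Zfp846 (0.67) and Gm26733 (0.66). Among the 8 themselves, Cd24a and Spp1 (0.56), Krt7 and Epcam (0.54), Gpc3 and Krt7 (0.53) and Krt19 and Krt7 (0.52) went together moderately. The lowest r among the 8 was that of Afp and Spp1 (-0.52). With Top2a, Krt19 had an r of 0.53 over all libraries and -0.06 within groups, and Afp had -0.22 and 0.31. Cd24a had 0.48 and 0.59, the highest within groups, and library 22 was highest for both Cd24a and Top2a. Krt7 had 0.46 and -0.12, Spp1 0.38 and -0.05, and Gpc3 0.36 and -0.09. Epcam had 0.25 and 0.17, and Sox9 0.12 and 0.34.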

How the data were processed

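Liver RNA of 20 mice was sequenced, 1 library per mouse over 4 lanes (80 lane samples). The authors' deposited table holds expected counts per gene and library, 22103 rows, with 58% of the values whole. Per the submitters' processing notes, Partek and GRCm38.p5 were used. The aligner, counting rule, annotation and strand setting are not stated in the labels or notes. The study's title speaks of targeted sequencing, and no target list was used. The smallest row total was 10 counts, and 21 rows carry names in the form of dates.

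Columns were assigned to dose groups by their names. Expected counts were rounded. edgeR 4.0.16 in R 4.3.3 kept 15197 rows (filterByExpr), scaled libraries by TMM and fitted all 5 groups with its quasi-likelihood test, with Benjamini-Hochberg adjustment over all genes tested and a biological coefficient of variation of 0.219. SE is the log2 change over the square root of F, and intervals use the fit's degrees of freedom. Gene symbols of 20992 rows (95%) matched GENCODE M21 on GRCm38, which gave positions and exon lengths. Alternatives were DESeq2 1.42.0, limma 3.58.1 (voom), RLE factors, no filter, 2 groups only, the 5 libraries that stood apart modelled or left out, and each replicate left out. The scripts were tested on simulated counts.

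Named were the 9 genes, for each list the up to 4 genes of lowest adjusted p against controls at the highest dose, a fixed set (Igf2, Zhx2, Zbtb20, Top2a, Mki67, Alb), and the 3 genes most like each of the 9. Others that passed in a list, and markers of single libraries, were named after their values were seen. The members and lists were chosen with earlier results of these data known. Some genes of the lists and of this rule are counted but not reported here.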

Additional observations from a re-analysis of the deposited data

Results flagged for a closer look

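In 6 of the 45 sets of 4 mice that the 9 genes and 5 groups make, 1 mouse lay far from the other 3 relative to the range. The rule flags about 1 in 20 sets of independent normal values. Many of these counts are small and the sets share 20 libraries, so no excess over chance can be read from this. Cd24a at 6.0 mg/kg-day had library 22 far above the rest, at 15.7 CPM, and at 0.3 mg/kg-day library 15 far below, at 0.866 CPM. Library 15 is one of the 5 that stood apart. Afp at 3.0 mg/kg-day had library 17 highest, at 4.64 CPM, in a group that was narrow otherwise. Krt19 and Epcam at 0.03 mg/kg-day had library 9 at 1.35 CPM and library 10 at 1.55 CPM as their highest mice, each the highest of its gene below 6.0 mg/kg-day. Krt7 in controls had library 2 highest, at 0.450 CPM, which widens the control range that the 6.0 mg/kg-day group is set against.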

How the results depend on the processing

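No paired analysis was possible because the groups share no replicate numbers. With a term for the 5 libraries that stood apart, the genes passing against controls numbered 13 (0.03), 306 (0.3), 1393 (3.0) and 5639 (6.0 mg/kg-day), and 1400 passed at 6.0 against 3.0. With them left out the counts were 2, 158, 5228 and 1476 at 0.03, 0.3, 6.0 and 6.0 against 3.0. DESeq2 gave 10, 186 and 658 at 0.03, 0.3 and 6.0 against 3.0, RLE factors and limma-voom gave 1 each at 0.03, and a fit of 2 groups only gave 1726 at 6.0 and 0 at 6.0 against 3.0. Leaving out 1 replicate gave 0 to 1, 12 to 51, 451 to 681, 2346 to 4653 and 110 to 969 in the same 5 comparisons and 2825 to 4376 for the trend. Of the 8 genes, 3 passed at 6.0 mg/kg-day with the term and 3 with them left out (Cd24a, Krt19 and Krt7 in both), and 2 by DESeq2. Against 3.0 mg/kg-day 3 passed with the term (Afp, Cd24a, Spp1), and 2 with them left out and by DESeq2. The trend passed 3 with the term and 2 with them left out. With 1 replicate left out, 0 to 4, 0 to 2 and 0 to 2 passed. None of the 8 passed at 0.03, 0.3 or 3.0 mg/kg-day under any alternative run. These signs turned, none of them of a change that passed. Gpc3 at 0.03 was -0.023 and Afp at 0.3 was -0.00167 by limma-voom. Sox9 at 3.0 was -0.095 without the libraries that stood apart, and its trend was 0.00122 (DESeq2), 0.00135 (RLE) and 0.019 (log10 dose). With 1 replicate left out, Afp, Gpc3 and Epcam at 0.03 ranged from -0.037 to 0.12, -0.14 to 0.39 and -0.047 to 0.89. Afp and Krt7 at 0.3 ranged from -0.090 to 0.070 and -0.039 to 0.37, and Gpc3 and Sox9 at 3.0 from -0.14 to 0.30 and -0.088 to 0.38. Epcam at 6.0 against 3.0 ranged from -0.080 to 0.31 and the Sox9 trend from -0.036 to 0.040. Divided by the longest transcript, control levels were 1.84 (Afp), 0.143 (Gpc3), 1.38 (Cd24a) and 0.0701 (Krt7) CPM per kilobase. Over 2 groups only, 2 genes of the fetal list rose and 2 of the duct list fell, an alternative chosen after seeing the data, as was leaving out single libraries for the gene lists. The causes were not tested. Counts of Gpc3, Krt7 and H19 were few in every library, and the intervals are wide for that depth.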

Other observations

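Of 14 genes that act with the 9, 13 were tested at 6.0 mg/kg-day, 3 fell and 0 rose, with a median log2 change of -0.19. That share is close to the 22.4% of all genes tested that passed at this dose. Without library 23, 6 fell. Gpc4 and Gpc1, glypicans like Gpc3, fell by 1.19 and 0.99 (edgeR adjusted p = 7.42e-07 and 0.0085), and Gpc6 was at 0.17 without passing. Notum, an enzyme that inactivates Wnt ligands, fell by 1.64 (adjusted p = 3.88e-06). Cd44, a receptor of osteopontin, was at -0.077 (-0.45 to 0.29), and the integrin subunit Itgav, part of another, at -0.45 (adjusted p = 0.0854).

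Markers of the other resident cells of liver also moved unevenly at 6.0 mg/kg-day, where 22.4% of all genes tested passed. Of 8 sinusoidal endothelial markers 2 rose and 2 fell: Lyve1 and Pecam1 rose by 1.78 and 0.54, and Stab2 and Stab1 fell by 0.71 and 0.46. Without library 3, 4 or 22, taken singly, 1 fell. Of 10 stellate cell and fibroblast markers tested, 3 fell and 0 rose, with Rgs5, Reln and Pdgfrb down by 0.84, 0.79 and 0.64, and without library 21, 5 fell. These cells can also make osteopontin. Of 9 hepatocyte markers 6 fell and 0 rose, led by Ahsg (fetuin-A), which fell by 1.74 (adjusted p = 0.000136). Without library 22, 3 of these fell (Ahsg, Alb and Fgb), without library 3 also 3, and in a fit of the 2 groups only, 2.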
